A study of Mus musculus with 6 samples.

Results

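The 4 Hox gene clusters were examined in peak lists from ATAC-seq, an assay that marks open chromatin by where the Tn5 transposase can cut. The libraries came from ATDC5, an established line of mouse chondrocyte precursors. Cells for all 3 days were, per the labels, spotted as dense droplets, differentiated with beta-glycerophosphate and L-ascorbate-2-phosphate, and frozen unfixed before the Tn5 reaction. Day0 libraries carry the treatment label control, and Day3 and Day10 libraries the label differentiation. Each day has 2 libraries from biological replicates that the labels call independent, and all 6 come from this 1 line with no genetic change named in the labels. A peak belongs to a cluster when its summit lies in 1 of 4 windows read as GRCm39. The Hoxa window is chr6:52100000-52300000 and the Hoxb window is chr11:96120000-96290000. The Hoxc window is chr15:102800000-103000000 and the Hoxd window is chr2:74450000-74650000. Together they held 1642 of the 1453803 peaks listed on the assembled chromosomes. Among the 78698 short windows centred on summits and built from the 50000 strongest peaks of each library, called regions here, 87 lay in the clusters. The Hoxa window had 35 of them, Hoxb 28, Hoxc 17 and Hoxd 7.

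Hox genes encode homeodomain transcription factors that give cells their position along the body and limb axes. In each cluster the genes are numbered in order, and low numbers are used earlier and nearer the head than high numbers. Polycomb complexes keep silent Hox genes in compact chromatin, and trithorax proteins keep active ones open. In the skeleton, genes of the Hoxa and Hoxd clusters with high numbers shape limb segments, and genes of all clusters set the identity of vertebrae.

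The member genes number 38, with 10 in Hoxa, 10 in Hoxb, 9 in Hoxc and 9 in Hoxd. Their positions were at hand only for GRCm38.p6, another build than that of the peak lists, so peaks were not assigned to single genes and no gene has a value of its own here. The gene order is known. From low to high coordinates Hoxa runs from Hoxa2 to Hoxa13, while Hoxb runs from Hoxb13 to Hoxb1, Hoxc from Hoxc13 to Hoxc4 and Hoxd from Hoxd13 to Hoxd1. In GRCm38.p6 the genes span 98.5 kb in Hoxa, 116.0 kb in Hoxc and 96.9 kb in Hoxd, less than their windows of 200 kb. The Hoxb genes span 174.0 kb there, more than the Hoxb window of 170 kb, and 96.9 kb without Hoxb13, the outlying gene of that cluster. Some of the Hoxb genes may therefore lie outside their window. The windows also hold sequence beside the clusters, and which part of a window lies in a cluster was not determined. For the same reason the chondrocyte markers of the line were not checked.

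Promoter sequence was described for some of the Hox genes, mostly of Hoxa and Hoxd. RefSeq promoter sequences of GRCm38.p6 were matched for 22 of the 38 genes, in 24 windows, of which the 250 bases before the start were used. Not matched were Hoxa4, Hoxb2, Hoxb3, Hoxb5, Hoxb6, Hoxb7, Hoxb9, Hoxb13, Hoxc5, Hoxc6, Hoxc8, Hoxc9, Hoxc10, Hoxc11, Hoxc12 and Hoxc13. Of Hoxb only Hoxb1, Hoxb4 and Hoxb8 were matched, and of Hoxc only Hoxc4, so the values say little of those clusters. The following 4 sequences are the promoters of the group 13 genes, which pattern the far end of limb and trunk, and of the group 9 genes, for Hoxa and Hoxd. They are given from 5′ to 3′ along the gene, with each CpG in capitals, because they differ widely in CpG. The poorest of the 24 windows, 1 of Hoxd11 with 2 CpG, is not among them. Positions are in GRCm38.p6 and cannot be set beside the peak positions.
Hoxa13, chr6:52260881-52261130, minus strand: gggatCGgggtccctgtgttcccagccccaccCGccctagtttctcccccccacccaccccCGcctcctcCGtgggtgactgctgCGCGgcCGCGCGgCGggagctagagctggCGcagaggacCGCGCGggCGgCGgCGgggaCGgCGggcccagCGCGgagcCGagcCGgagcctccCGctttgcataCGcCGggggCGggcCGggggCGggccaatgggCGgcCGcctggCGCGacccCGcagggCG
Hoxd13, chr2:74667975-74668224, plus strand: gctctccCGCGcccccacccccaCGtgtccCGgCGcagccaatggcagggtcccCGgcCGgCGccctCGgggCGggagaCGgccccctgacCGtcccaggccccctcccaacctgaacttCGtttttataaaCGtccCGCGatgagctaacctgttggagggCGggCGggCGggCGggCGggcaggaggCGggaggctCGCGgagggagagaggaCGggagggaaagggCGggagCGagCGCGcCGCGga
Hoxd9, chr2:74697513-74697762, plus strand: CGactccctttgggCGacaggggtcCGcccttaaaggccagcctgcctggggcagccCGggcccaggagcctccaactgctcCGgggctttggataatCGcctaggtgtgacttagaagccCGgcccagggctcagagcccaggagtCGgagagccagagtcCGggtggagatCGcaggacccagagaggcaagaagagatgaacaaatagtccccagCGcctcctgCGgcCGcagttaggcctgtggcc
Hoxa9, chr6:52227371-52227620, minus strand: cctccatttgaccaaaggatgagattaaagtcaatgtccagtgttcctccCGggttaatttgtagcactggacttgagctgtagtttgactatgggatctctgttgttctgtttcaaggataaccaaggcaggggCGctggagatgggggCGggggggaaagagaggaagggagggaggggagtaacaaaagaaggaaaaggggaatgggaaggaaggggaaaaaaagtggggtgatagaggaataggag

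The Hoxa13 stretch had 35 CpG and 80.0% G and C, and that of Hoxd13 had 31 CpG and 74.4%. The Hoxd9 stretch had 13 CpG, and that of Hoxa9 had 3 at 49.6% G and C. Over the 24 Hox windows the median ratio of observed to expected CpG was 0.721, against 0.373 over all 32851 promoter windows in the table. Median G and C content was 58.6% against 52.4%. The same 250 bases were searched on both strands for short motifs, each match being a description only. The homeobox motif TAATTA stood in 2 of the 24 Hox windows, both of Hoxd11 (8.33%, against 4.84% of all windows). The Hox-Pbx motif TGATTNAT, named for Hox proteins and their Pbx partners, stood in 2, of Hoxa2 and Hoxd11 (8.33%, against 2.82%). For the core motif of CTCF, a chromatin loop anchor, the count was 3 windows, of Hoxa11, Hoxc4 and Hoxd11 (12.5%, against 7.17%), and for the Sox motif ACAANG it was 8 (33.3%, against 36.3%). The AP-1 motif TGANTCA stood in 1 Hox window (4.17% against 6.75%). TGTGGTT, for Runx, stood in none of the 24 (against 4.4%).

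Before differentiation, 3 of the 4 windows were dense in strong peaks, and the Hoxd window was not. A peak is called strong when it ranks among the 50000 best of its library by the authors' -log10 p. On Day0 the Hoxa window had 22 and 20 strong peaks in the 2 libraries, Hoxb 23 and 21, Hoxc 12 and 10, and Hoxd 3 in each. Per 10 kb that was 1.1 and 1.0 for Hoxa, 1.35 and 1.24 for Hoxb, 0.6 and 0.5 for Hoxc and 0.15 for Hoxd. The mean over all chromosomes was 0.184 per 10 kb in every library. Hoxb was thus 7.36 and 6.72 times as dense as the chromosomes at large on Day0, and Hoxd 0.816 times.

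**Figure D1:**
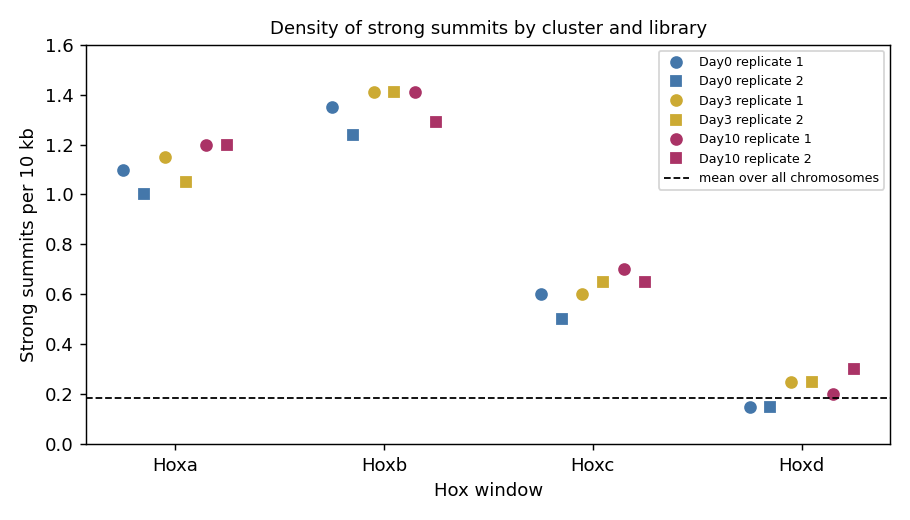
Strong summits per 10 kb (vertical axis) in the Hoxa, Hoxb, Hoxc and Hoxd windows (horizontal axis), with 1 point per library, coloured by day, and a dashed line for the mean over all chromosomes. Hoxb, Hoxa, Hoxc and Hoxd follow in this order in each library, and only the Hoxd points lie close to the dashed line.

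The order Hoxb, Hoxa, Hoxc, Hoxd held in 6 of 6 libraries, with means of 1.35 ± 0.0744, 1.12 ± 0.0816, 0.617 ± 0.0683 and 0.217 ± 0.0606 per 10 kb (SD, n = 6 libraries of 3 days). Hoxb and Hoxa differed little in their number of strong peaks. Hoxb had more in the 4 libraries of Day0 and Day3, by 1 to 3 peaks. At Day10 both had 24 in replicate 1, and Hoxa had 24 and Hoxb 22 in replicate 2, so in those 2 libraries the order rests on the shorter Hoxb window. When the 100 kb with most strong summits was taken in each window, the order held in 5 of 6 libraries. At a rank of 30000 it held in 4 of 6. Set beside all tiles of 200 kb along the chromosomes, 98.54% to 99.55% of tiles were less dense than the Hoxa window, and 99.44% to 99.89% than Hoxb. For Hoxc the share was 87.48% to 93.34%, and for Hoxd 57.05% to 74.7%. These shares describe the windows, which were not drawn at random, and no test was made of them.

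The strongest single region of the clusters lay in Hoxa, on chromosome 6 from 52135136 to 52135636. It ranked 1944 and 1353 on Day0, 1675 and 2419 on Day3 and 2739 and 2645 on Day10, so it stayed near the top on every day. In Hoxb, the regions from 96151054 to 96151554 and from 96152315 to 96152815, close neighbours, ranked between 1871 and 8981 in the 6 libraries. Another Hoxb region, from 96161712 to 96162212, ranked 2762 and 1593 on Day0, 5230 and 8159 on Day3 and 11785 and 9602 on Day10. Its Day10 ranks were poorer than those of both earlier days in each library. The best Hoxc region, on chromosome 15 from 102910481 to 102910981, likewise ranked 5251 and 3154, then 6943 and 4036, then 20409 and 17622. The best Hoxd region, on chromosome 2 from 74546033 to 74546533, ranked 13480 and 8597, then 7535 and 7870, then 21641 and 14736. All of these stayed strong in all 6 libraries.

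These leading regions are those with the best mean rank among regions with a summit listed in every library. By the best overlapping peak, the Hoxa region from 52188450 to 52188950 (mean rank 8267) and the Hoxc region from 102911097 to 102911597 (mean rank 7300), neither with its own summit in every library, would stand ahead of some of them. The other leading regions had no direction in common. In Hoxa, the region from 52181257 to 52181757 ranked between 2646 and 9354, and the region from 52282779 to 52283279, near the upper end of the window, between 7514 and 22511. In Hoxc, the region from 102851650 to 102852150 ranked 21241 and 23700 on Day0 and between 5951 and 14250 on Day3 and Day10. The Hoxc region from 102907561 to 102908061 ranked 21243 and 22894 on Day0, 18664 and 14693 on Day3 and 5599 and 7319 on Day10, with no overlap between days. In Hoxd, the region from 74535934 to 74536434 ranked between 23386 and 37040, and that from 74521890 to 74522390 between 32101 and 47620. Of the 87 Hox regions, 6 reached the best 5000 ranks in some library (6.9%, against 11.8% of all regions). By window this share was highest in Hoxb, with 3 of 28 (10.7%). The Hox regions thus held no higher share of the very strongest than all regions did. Their median best rank was better, 21242 against 24456.

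Along the windows, strong summits were packed into part of each. In the Hoxb window, 7 neighbouring bins of 10 kb, from 96140001 to 96210000, held a strong summit in every library, with a mean of 4.17 in the first of them. The last 40 kb, on the side of Hoxb1, had none in any library. In Hoxa the longest such run was 50 kb, from 52150001 to 52200000. The lower 100 kb of the Hoxa window, on the side of Hoxa2, held 14 to 18 strong summits per library and the upper 100 kb 5 to 7. In Hoxc the last 50 kb, on the side of Hoxc4, had none, and the lower and upper 100 kb held 5 to 7 each. In Hoxd, 3 neighbouring bins from 74520001 to 74550000 held a strong summit in every library and all 3 strong summits of each Day0 library, and the last 60 kb, on the side of Hoxd1, had none. Since gene positions in the build of the lists were not at hand, these positions do not give an order by gene number.

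**Figure D2:**
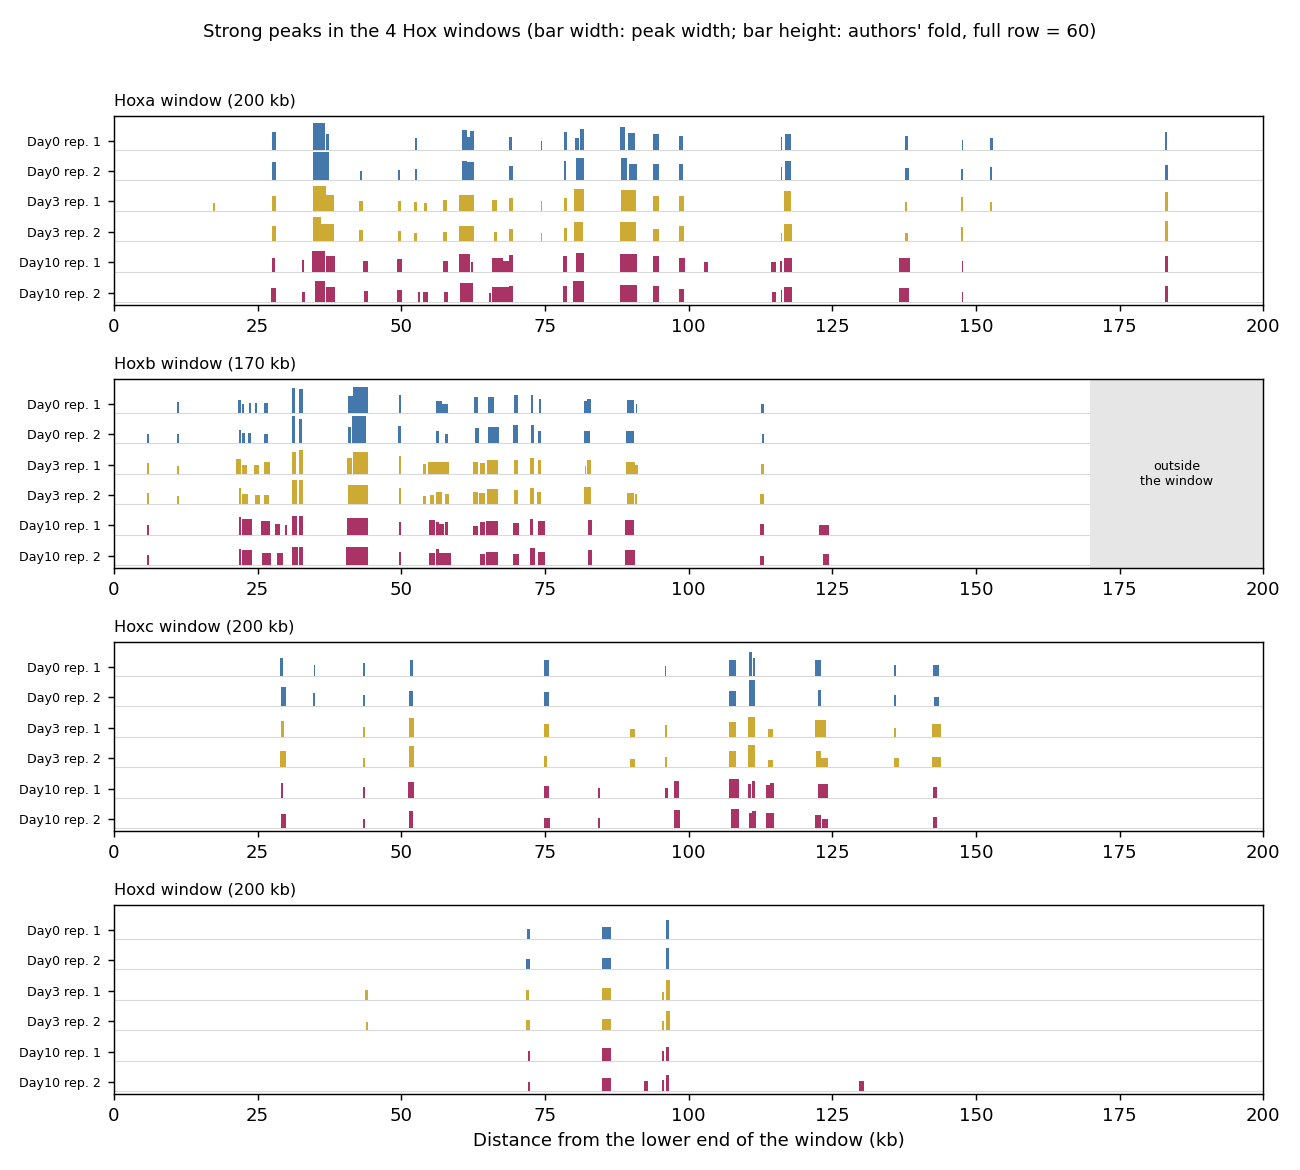
Strong peaks in each library (rows, coloured by day) along the 4 windows (horizontal axis, distance in kb from the lower end), with bars as wide as the peak and as high as the authors' fold over background, where a full row is 60. Strong peaks overlap 46 of the 87 Hox regions in all 6 rows, and many bars in the Hoxa and Hoxb windows are wider in the Day3 and Day10 rows than in the Day0 rows.

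On Day3 and Day10, strong peaks covered more of the Hox windows together than on Day0. They covered 41065 and 41048 bases in the Day0 libraries, 59014 and 57488 on Day3, and 65440 and 67739 on Day10. The libraries of the 3 days did not overlap. Nor did they over the whole series, with 32932451 and 33170917 bases on Day0, 36469748 and 36119143 on Day3 and 40414149 and 42019748 on Day10. The Hox mean was 1.42 times that of Day0 on Day3 and 1.62 times on Day10. Over all 50000 strong peaks of a library the factors were 1.1 and 1.25. With 2 libraries against 2, the smallest two-sided exact p is 0.33, so no test was made of these values. The number of strong Hox peaks moved less, from 60 and 54 on Day0 to 64 and 63 on Day3 and 66 and 65 on Day10, and the peaks themselves were wider. The median width of strong Hox peaks was 573.5 and 569.5 bases on Day0, 732.5 and 766.0 on Day3 and 792.5 and 841.0 on Day10. Over all strong peaks it was 546 and 552, then 593 and 591, then 644 and 671.

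By cluster, Hoxa went from 14803 and 16260 covered bases on Day0 to 21436 and 20479 on Day3 and 26210 and 26906 on Day10. Hoxb went from 16357 and 15158 to 23243 and 21925 and then 25620 and 25035. In both, the days did not overlap, as over the whole series. Hoxc had 7123 and 6708 bases on Day0 and 10850 and 11541 on Day3, and its Day10 values, 10829 and 11313, overlapped those of Day3. In Hoxd the Day10 libraries parted, with 2781 and 4485 bases, and replicate 1 lay below both Day0 values of 2782 and 2922. As a description, the Day3 ratio was set beside 1602 tiles of 200 kb with at least 10 strong summits in both Day0 libraries. The tiles had a median of 1.08, and 94.9% of them were below the Hoxa ratio of 1.35, 97.8% below the Hoxb ratio of 1.43 and 99.6% below the Hoxc ratio of 1.62. For Day10 the median was 1.23, and 80.8% to 85.7% of tiles were below the 3 windows.

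The length of the lists moved with day too. The Day0 lists held 164642 and 164960 peaks, the Day3 lists 177751 and 177111 and the Day10 lists 381376 and 390100. The smallest listed width was 87 to 90 bases on Day0 and Day3 and 68 and 72 on Day10. Peak names in the Day3 lists hold the word lysis and those in the Day10 lists another tag that Day0 names lack, so day and a separate handling of its cells or files cannot be told apart. The part of list length or handling in the widths was not tested. When every listed peak was counted, the Hox windows had 1.19 times the Day0 bases on Day3 against 1.09 over all peaks, and 1.95 against 1.86 on Day10. The excess of the Hox windows was thus smaller among all listed peaks than among strong ones.

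**Figure D3:**
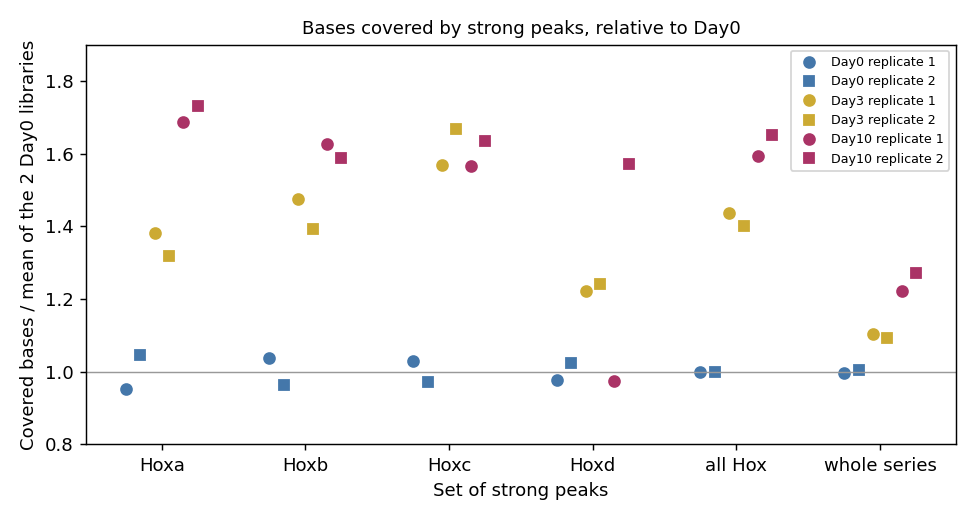
Bases covered by strong peaks divided by the mean of the 2 Day0 libraries (vertical axis, starting at 0.8), for each window, the 4 windows together and the whole series (horizontal axis), with 1 point per library. In the Hoxa, Hoxb and Hoxc windows, and in the whole series, all Day3 and Day10 points lie above the Day0 points. For the 4 windows together the means are 1.42 and 1.62, against 1.1 and 1.25 for the whole series.

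Overlapping strong peaks of the 6 libraries were joined into 76 stretches in the Hox windows and 73924 in all. Only bases under strong peaks were counted. A stretch is called wider when both libraries of the later day had more of them than both of the earlier day. The reverse is called narrower. A peak that crossed the rank limit thus counts whatever its width. From 52157223 to 52158189 in Hoxa, strong bases rose from 0 on Day0 to 666 and 675 on Day3. Listed bases there fell from 854 and 856 to 819 and 800. From 52152219 to 52152742, strong bases fell from 374 and 417 on Day0 to 0 on Day10. Listed bases there rose to 468 and 524. Such stretches were not counted, so the shares that follow describe strong peaks alone. On Day3 against Day0, 44 of the 76 Hox stretches were wider (57.9%, against 33.0% of all stretches) and 1 was narrower (1.32%, against 19.0%). On Day10 against Day0, 41 were wider (53.9%, against 41.6%) and 12 narrower (15.8%, against 28.5%). On Day10 against Day3, 30 were wider (39.5%, against 34.0%) and 21 narrower (27.6%, against 29.9%), close to the shares of all stretches. The comparisons share libraries and are not independent of each other. By cluster, 16 of 29 stretches were wider on Day3 than on Day0 in Hoxa, 16 of 25 in Hoxb, 9 of 15 in Hoxc and 3 of 7 in Hoxd.

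The 8 Hox stretches of 2000 bases or more, and some shorter ones, were named after their values were seen. On chromosome 11 from 96174707 to 96178742, strong peaks covered 2107 and 974 bases on Day0, 3546 and 2641 on Day3 and 3100 and 3689 on Day10. On chromosome 6 from 52165774 to 52168728, no strong peak was present on Day0, 808 and 594 bases were covered on Day3, and 2898 and 2938 on Day10. Weaker peaks were listed there from the start, over 2063 and 1856 bases on Day0. The Hoxa stretch from 52188065 to 52191005 held 2 strong peaks in each Day0 library and 1 in each later library, the only strong peak then covering 2693 to 2919 bases. Neighbouring peaks there were thus listed as 1 wide peak from Day3 on. In Hoxb, 2 strong peaks from 96160468 to 96164264 on Day0 were likewise listed as 1 peak of 3690 and 3730 bases on Day10. The other 4 long stretches were strong in every library. In the stretch from 52134545 to 52138471, which holds the best Hox region, 2648 and 2886 bases were covered on Day0, 3642 and 3632 on Day3 and 3785 and 3434 on Day10. The Hoxa stretch from 52160021 to 52162697 had 1840 and 1976, then 2655 and 2677, then 2376 and 2415. The Hoxc stretch from 102922056 to 102924328 had 932 and 414, then 1769 and 2037, then 1752 and 2185. In these 3 the Day0 libraries lay below all later ones by strong peaks. By all listed peaks the first of the 3 had 3543 and 3670 bases on Day0 and 3632 to 3785 later, so its days overlapped. The Hoxb stretch from 96184779 to 96186941 had 1087 and 1890, then 1908 and 1794, then 2043 and 2055, and its Day0 and Day3 libraries overlapped. Among shorter stretches, picked as examples of different courses, was the Hoxa stretch from 52236582 to 52238552. Strong peaks covered 447 and 579 of its bases on Day0, 389 and 540 on Day3 and 1967 and 1836 on Day10. All listed peaks there covered 1265 and 1317 bases on Day0 and 1967 and 1906 on Day10. In the other direction went the strong peaks of the Hoxc stretch from 102942311 to 102943947. They covered 1030 and 831 bases on Day0, 1637 and 1576 on Day3 and 668 and 684 on Day10. All listed peaks of that stretch covered 1030 and 1167 bases on Day0 but 1313 and 1351 on Day10. In Hoxd, the stretch from 74534881 to 74536581 barely moved, with 1606 to 1701 bases in all 6 libraries. Of the Hox stretches 10.5% reached 2000 bases, against 4.68% of all stretches.

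Regions were then compared between days. A region was gained when it held a summit of rank 50000 or better in both libraries of the later day and none better than 100000 in either library of the earlier day, lost under the reverse, and kept when it ranked 50000 or better in all 4 libraries. On Day3 against Day0, 0 Hox regions were gained (background 1.17%), 4 were lost (4.6%, background 1.72%) and 41 were kept (47.1%, background 45.6%). No p-value was computed for these calls. Of the 4 lost regions 3 were covered by a strong Day3 peak with its summit elsewhere, so 1 was lost when any overlapping peak was counted too (1.15%, background 0.513%) and 0 were gained (background 0.543%). On Day10 against Day0, 6 were gained (6.9%, background 12.0%), 2 lost (2.3%, background 10.0%) and 39 kept (44.8%, background 34.9%). Counting overlapping peaks as well, 5 were gained (background 10.7%) and 1 lost (background 7.99%). On Day10 against Day3, 7 were gained (8.05%, background 9.08%), 0 lost (background 4.59%) and 41 kept (47.1%, background 37.9%). Counting overlapping peaks as well left 2 gained (background 7.72%) and 0 lost (background 3.16%). Under these rank limits the Hox shares gained and lost on Day10 were below the background, the gain against Day3 by little under the summit rule. With no gap between the ranks, 13 regions were gained against Day0 (14.9%, background 19.3%) and 6 lost (6.9%, background 19.5%). Other ranks for a strong peak put the gain against Day3 above the background, at 7.84% against 5.69% for rank 30000 and 13.6% against 12.2% for rank 70000. Without Day10 replicate 1 it was 12.0% against 11.2%. With overlapping peaks alone, 0 were gained (background 0.606%), 1 lost (background 0.529%) and 50 kept (57.5%, background 51.5%) on Day3. On Day10 against Day0 that rule gave 5 gained (background 11.2%), 1 lost (background 8.08%) and 48 kept (55.2%, background 41.3%). Against Day3 it gave 2 gained (background 8.05%), 0 lost (background 3.29%) and 55 kept (63.2%, background 45.0%). Without Day10 replicate 1 the lost regions were 5 against Day0 (6.02%, background 11.7%) and 4 against Day3 (4.82%, background 6.01%). Without Day10 replicate 2 they were 4 (4.82%, background 11.8%) and 2 (2.41%, background 6.03%). At Day3, 7 were lost without Day0 replicate 2 (8.05%, background 2.42%) and 1 was gained without Day0 replicate 1 (1.16%, background 1.82%). Leaving out Day3 replicate 2 gave 1 lost on Day10 against Day3 (1.15%, background 5.91%).

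Strong Hox regions of Day0 were mostly still strong at the end. Of 50 regions with a rank of 50000 or better in both Day0 libraries, 44 were overlapped by a strong peak in both Day10 libraries, against 65.2% of 45651 such regions in all. On Day3 it was 46 of 50, against 82.5%. The Hox share held at Day10 was above that of all regions in each class of Day0 rank. Of 12 Hox regions whose poorer Day0 rank was above 20000 and up to 30000, 11 were held at Day10 (64.0% of all regions of that class), and of 13 up to 40000, 10 (50.3%). Of 9 up to 50000, 7 were held (37.8%). By the summit alone, 39 of the 50 were kept at Day10 (78.0%, against 60.1% of all such regions) and 41 at Day3 (82.0%, against 78.5%). Hox regions lie close together and their peaks are wide, and the part of that in these counts was not tested. From Day3 to Day10, 43 of 55 were held, against 69.9%, and in the class from 40000 to 50000 it was 4 of 13, against 33.4%. Regions strong on all 3 days by the summit numbered 35 of 87 (40.2%, against 32.7% of all regions). These were 11 of 35 in Hoxa, 13 of 28 in Hoxb, 8 of 17 in Hoxc and 3 of 7 in Hoxd.

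Under both rules 6 Hox regions changed, and 3 of them lay in Hoxc, which has 17 of the 87 regions. On Day10 against Day0 the 6 were 5 gained (5.75%, background 10.7%) and 1 lost (1.15%, background 7.99%), both shares below the background. The region with the clearest gain lay on chromosome 15 from 102897746 to 102898246. No peak was listed there in any Day0 or Day3 library, and it ranked 11920 and 9087 on Day10, with an authors' fold of 32.6 and 35.3. A second Hoxc gain, from 102884185 to 102884685, ranked 145288 and 163336 on Day0, was not listed on Day3, and ranked 47965 and 40426 on Day10. The third Hoxc region, from 102834586 to 102835086, was lost early. It ranked 38302 and 31113 on Day0 and 116535 and 147269 on Day3, and no Day10 library listed it, although those lists are the longest.

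The Hoxa and Hoxb gains passed through middle ranks on Day3. In Hoxa, the region from 52132735 to 52133235 was not listed on Day0, and ranked 75077 and 79994 on Day3 and 33717 and 41201 on Day10. The Hoxa region from 52143711 to 52144211 ranked 126529 and 139225, then 75078 and 89679, then 36623 and 36722. In Hoxb, the region from 96148316 to 96148816 ranked 130104 and 119897, then 76288 and 63737, then 37116 and 32969. In these 3 regions every Day3 library stood between the Day0 and Day10 libraries. Such a course, out on Day0, between the limits on Day3 and strong on Day10, was as frequent in the Hox windows (3.45%) as among all regions (3.46%). None of the 7 Hoxd regions was gained or lost in any comparison, a number too small to set beside the background of 12.0% gained on Day10 against Day0. The Hoxd region from 74580084 to 74580584, named after its values were seen, came close to a gain. It was not listed on Day0, ranked 151567 and 151803 on Day3 and ranked 50591 and 40824 on Day10.

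**Figure D4:**
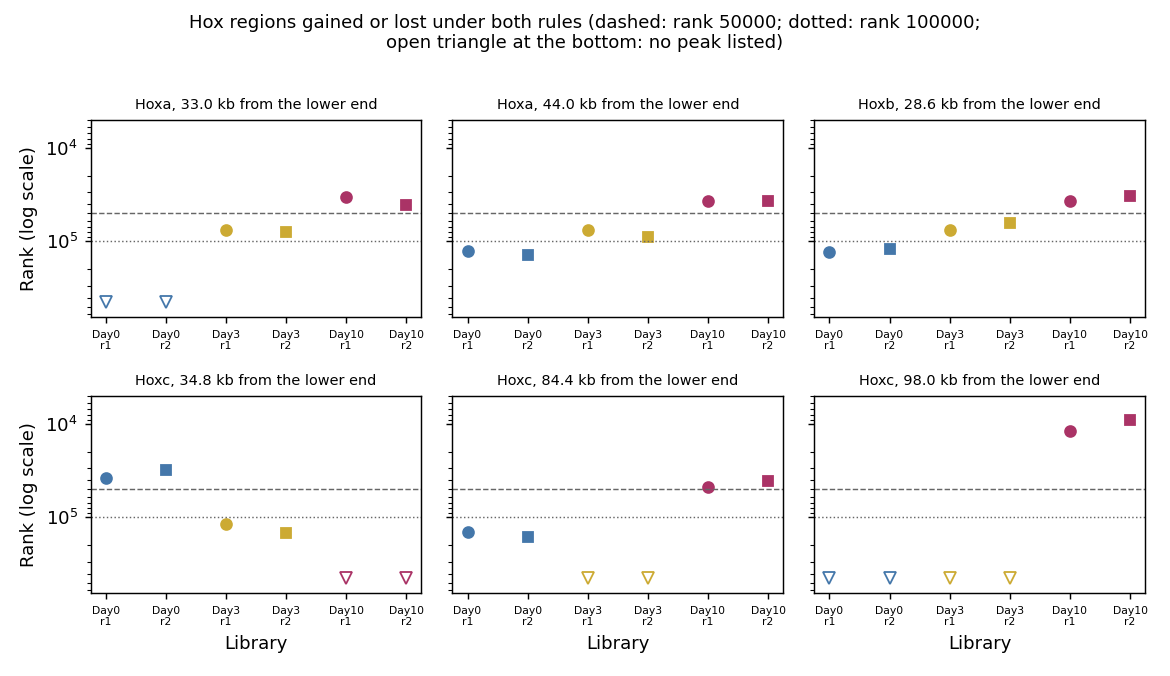
Rank of the 6 Hox regions gained or lost under both rules (vertical axis, log scale, best ranks at the top) in each library (horizontal axis), with dashed and dotted lines at ranks 50000 and 100000 and open triangles where no peak was listed. Both Hoxa regions and the Hoxb region move up through Day3, while the Hoxc region at 98.0 kb appears on Day10 alone and the one at 34.8 kb is gone from the Day10 lists.

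The strong bases of the Hox windows followed the day. The Jaccard index, the bases shared by 2 libraries divided by the bases covered in either, was 0.768 for the replicates of Day0, 0.845 for those of Day3 and 0.82 for those of Day10. Libraries of different days shared less. Day0 and Day10 had a mean index of 0.494, Day3 had one of 0.634 with Day0, and Day10 had one of 0.601 with Day3. Of the 15 ways to pair 6 libraries, pairing by day gave the highest mean, 0.811, and the next gave 0.7. An exact permutation over these pairings gave a one-sided p of 0.067, the lowest they can reach. Among the clusters Hoxd stood apart in its Day10 replicates, whose index was 0.607, against 0.946 for its Day0 replicates. Hoxd alone thus did not follow the day. There, Day10 replicate 1 had a higher index with the Day0 libraries, 0.793 and 0.777, and with the Day3 libraries, 0.756 and 0.755. Day10 replicate 2 had 0.519 to 0.524 with these libraries. In the other 3 windows replicates of a day had an index of 0.707 to 0.862, and Day0 and Day10 libraries one of 0.42 to 0.524.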

How the data were processed

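ATAC-seq peak lists of 6 libraries were used, 2 for each of Day0, Day3 and Day10, with groups and replicate numbers from the sample titles. Per the labels' protocols, reads were single-end and 75 bases long. Per the submitters' processing notes, Trim Galore was used and mm10 is named, but scaffold names in the lists belong to GRCm39. For the aligner, the peak caller and any Tn5 shift, the sources used here give no name. The deposited lists, 1 per library, give the authors' fold ratio over background, their -log10 p and -log10 q, and an integer score that follows the deposited -log10 q. Read totals were not used, so depth is unknown and no counting interval is given. The 2 libraries of a day measure only the spread between these samples, which may be technical.

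Peaks on chromosomes 1 to 19, X and Y were ranked within each library by -log10 p, fold and position. Between 1666 and 2061 peaks per library tie at rank 50000. Regions are short windows of 1 fixed length centred on summits, taken from the best rank down. Fold at rank 50000 was 14.46 to 17.75. The Jaccard index was tested by exact permutation. The calling code was tested on simulated lists of narrow peaks set well apart, with changes well beyond both rank limits. Such lists do not test calls among crowded, wide peaks like those of the Hox windows. Python 3.11.15, numpy 2.4.6 and pandas 2.3.3 were used. Named are the regions gained or lost under both rules and the 3 with the best mean rank in each cluster among regions with a summit listed in every library. The members and lists were chosen with earlier results of these data known. Promoter states of Hox genes, cofactors, Polycomb and trithorax genes, ParaHox genes and cell type markers, and motifs at summits, need an annotation or genome of the lists' build and were not run. Alternatives changed the rank, the gap, the overlap rule, the window and the tie order, and left out each library.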

Additional observations from a re-analysis of the deposited data

How the results depend on the processing

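No paired analysis was possible because the results come from no fitted test, and the labels call the replicates independent. Within replicate numbers, the covered bases of the Hox windows were 1.44 and 1.4 times those of Day0 on Day3 and 1.59 and 1.65 times on Day10, against 1.11 and 1.09, and 1.23 and 1.27, over all strong peaks. Gene-based alternatives (other promoter distances, windows from the first to the last gene) were not run. Depth is unknown, so a missing peak is not evidence of closed chromatin. Counts are given in the order gained, lost, kept where all 3 moved. With strong set at rank 30000 there were 51 Hox regions. Day3 against Day0 then had 2 lost (3.92%, against 1.17% of all regions) and 25 kept (49.0%, against 44.3%). Day10 against Day0 had 1 gained (1.96%, against 8.01%), 1 lost (1.96%, against 5.69%) and 20 kept (39.2%, against 34.5%). Day10 against Day3 had 4 gained (7.84%, against 5.69%) and 25 kept (49.0%, against 37.3%). At rank 70000 (118 Hox regions), 14 were gained on Day10 against Day0 (11.9%, against 15.5% of all regions), and 16 gained and 3 lost against Day3 (13.6% and 2.54%, against 12.2% and 8.65%). With no gap between ranks, on the same 87 regions, 6 were gained on Day3 (6.9%, against 8.64%). For Day10 against Day0, 13 were gained (14.9%, against 19.3%) and 6 lost (6.9%, against 19.5%). Against Day3, 12 were gained (13.8%, against 16.3%) and 10 lost (11.5%, against 15.5%). Under the overlap rule, alone or with the summit rule, 1 was lost on Day3, 1 was lost on Day10 against Day0 and 2 were gained against Day3. Narrower windows gave 4 lost on Day10 against Day0 (4.3%, against 11.4%) and 3 against Day3 (3.23%, against 5.84%). Wider windows gave 3 gained on Day10 against Day3 (3.9%, against 8.31%). With a -log10 q of 10 or more as strong (191 Hox regions), Day3 against Day0 had 2, 9 and 76, Day10 against Day0 had 39, 9 and 74, and Day10 against Day3 had 40, 4 and 76. Gains on Day10 were then 20.4% against Day0 and 20.9% against Day3, with 24.5% and 22.1% over all regions. Losses by that rule were 4.71% on Day3 (4.19% over all regions). On Day10 they were 4.71% against Day0 and 2.09% against Day3 (7.68% and 3.35% over all regions). Other ranks, the q rule and other windows build other regions, while the gap and overlap settings call the same regions by other limits. The cause of the shifts was not tested. Reversing the order of ties, an alternative chosen after seeing the data, changed no count by over 1 region. Leaving out each library gave on Day3 against Day0 0 to 1 gained (1 without Day0 replicate 1), 3 to 7 lost and 41 to 46 kept. It gave 6 to 8, 2 to 5 and 39 to 41 on Day10 against Day0, and 7 to 10, 0 to 4 and 41 to 45 against Day3.

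Summits per 10 kb for Hoxa, Hoxb, Hoxc and Hoxd were 0.692, 0.775, 0.358 and 0.075 at rank 30000, and 1.53, 1.86, 0.817 and 0.408 at rank 70000. They were 2.18, 2.39, 1.33 and 0.75 with the -log10 q rule, and 4.64, 4.98, 3.14 and 1.67 for every listed peak. In the densest 100 kb, chosen after seeing the data, they were 1.87, 2.17, 1.0 and 0.433. Without each library they were 1.1 to 1.14, 1.34 to 1.38, 0.6 to 0.64 and 0.2 to 0.23, and the order of the clusters held in 5 of the 5 libraries left. The Jaccard index within days ranged from 0.748 to 0.844 over the other thresholds. Its exact permutation p cannot fall under 0.067, so it says nothing of stability. The Hox ratio of covered bases to Day0, divided by that of the whole series, was 1.29 on Day3 and 1.3 on Day10. It ranged from 1.09 to 1.34 and from 1.05 to 1.46 over other thresholds, and from 1.28 to 1.3 and from 1.3 to 1.31 without each library, alternatives also chosen after seeing the data.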
